A study of Mus musculus with 4 samples.

Results

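FOXL2 peaks were examined at 89 genes of the extracellular matrix and its integrin receptors, of 21887 protein-coding genes. They were chosen by symbol: all Col, Lam and Itg genes of the numbered families, with Nid1, Nid2 and Hspg2. The set held 44 collagen genes, 11 laminin genes, 3 nidogen and perlecan genes, 18 integrin alpha genes and 9 integrin beta genes. The remaining 4, Itgb1bp1, Itgb1bp2, Itgb3bp and Itgbl1, match the symbol pattern without being integrin subunits. The data came from XX gonads of CD1 mouse embryos at E14.5, with 2 FOXL2 ChIP samples made with an antibody to FOXL2 and 2 input samples made without one. Separate pools of whole ovaries went into the ChIP experiments, so cells other than the granulosa lineage were present, and a peak list cannot check the tissue against its marker genes. The deposited values were the positions of 11438 peaks, each 300 bp wide, in a single list on build mm10, with no height or score. Peaks on the assembled autosomes and sex chromosomes, 11435 in all, entered the counts. Because the list holds neither reads nor a value per pool, sequencing depth is not known and replicate error could not be estimated for any peak. The intervals below treat genes as independent and cover counting error alone. Genes that lie side by side share peaks and are not independent.

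FOXL2, a transcription factor of the forkhead family, acts in granulosa cells, which surround and nourish the oocyte. In the fetal ovary, germ cells and pregranulosa cells lie in cords bounded by a basement membrane, a thin sheet of laminin and collagen IV networks linked by nidogen and perlecan. Fibrillar collagens instead form the fibres of the stroma between the cords. Laminins are trimers of an alpha, a beta and a gamma chain, and integrins are pairs of an alpha and a beta chain through which cells hold on to the matrix.

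The stretches in front of transcription starts shown here cover some of the situations found among these genes. Promoters with at least 20 CpG and no start peak are not among them. Itgav, Col27a1, Itgb5 and Itgb8 had a peak over the start, Lama2 had a peak at a start almost free of CpG, and Col1a2 and Col3a1 had none. Each line gives the 250 bases before the listed start, 5′ to 3′ on the strand of the gene, from RefSeq on GRCm38.p6. Capitals mark the letters GGGCGG (a GC box), CCAAT or TGTTTNC (a loose forkhead pattern), or their complements on the other strand.
Itgav: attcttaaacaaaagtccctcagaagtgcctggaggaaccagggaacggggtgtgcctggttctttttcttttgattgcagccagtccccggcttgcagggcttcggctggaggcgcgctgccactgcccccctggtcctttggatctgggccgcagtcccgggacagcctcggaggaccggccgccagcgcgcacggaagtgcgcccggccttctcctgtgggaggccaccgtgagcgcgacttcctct
Col27a1: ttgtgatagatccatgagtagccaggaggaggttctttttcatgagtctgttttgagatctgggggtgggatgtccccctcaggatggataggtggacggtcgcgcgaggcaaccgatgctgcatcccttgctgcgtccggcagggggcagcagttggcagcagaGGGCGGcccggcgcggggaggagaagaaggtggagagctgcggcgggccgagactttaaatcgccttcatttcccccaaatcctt
Itgb5: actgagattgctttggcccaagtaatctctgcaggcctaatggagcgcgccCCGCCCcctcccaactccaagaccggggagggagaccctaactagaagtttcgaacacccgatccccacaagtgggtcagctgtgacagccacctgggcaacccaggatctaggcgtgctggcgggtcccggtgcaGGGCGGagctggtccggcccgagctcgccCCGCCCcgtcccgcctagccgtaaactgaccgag
Itgb8: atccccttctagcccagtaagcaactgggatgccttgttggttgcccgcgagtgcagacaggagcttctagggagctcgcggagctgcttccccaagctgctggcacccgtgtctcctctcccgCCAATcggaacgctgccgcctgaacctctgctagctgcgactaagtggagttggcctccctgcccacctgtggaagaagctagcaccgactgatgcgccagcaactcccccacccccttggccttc
Lama2: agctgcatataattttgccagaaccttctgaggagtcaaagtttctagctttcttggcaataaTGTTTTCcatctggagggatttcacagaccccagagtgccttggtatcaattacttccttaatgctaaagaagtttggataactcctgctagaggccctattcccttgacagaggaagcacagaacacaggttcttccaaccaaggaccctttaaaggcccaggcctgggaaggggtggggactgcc
Col1a2: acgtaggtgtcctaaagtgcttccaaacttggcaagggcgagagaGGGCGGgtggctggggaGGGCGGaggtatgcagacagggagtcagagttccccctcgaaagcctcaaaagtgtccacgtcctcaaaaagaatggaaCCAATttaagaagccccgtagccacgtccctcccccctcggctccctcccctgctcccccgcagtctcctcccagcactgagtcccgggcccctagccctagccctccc
Col3a1: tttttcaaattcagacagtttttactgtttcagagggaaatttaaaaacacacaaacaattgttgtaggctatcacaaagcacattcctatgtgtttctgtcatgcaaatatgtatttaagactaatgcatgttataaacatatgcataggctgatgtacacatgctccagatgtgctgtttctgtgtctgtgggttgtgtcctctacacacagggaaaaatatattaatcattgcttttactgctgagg
The Itgav stretch lies at chr2:83724147-83724396 (plus strand) and shares 174 bases with the peak. The Col27a1 stretch lies at chr4:63215162-63215411 (plus strand) and shares 172. The Itgb5 stretch lies at chr16:33829415-33829664 (plus strand) and shares 234, and the Itgb8 stretch lies at chr12:119238277-119238526 (minus strand) and shares 230. The Lama2 stretch lies at chr10:27616943-27617192 (minus strand) and shares 5, because the peak there sits downstream of the start. The Col1a2 stretch is chr6:4505368-4505617 and the Col3a1 stretch chr1:45311288-45311537, both on the plus strand and both outside every peak.

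The first question was how many of these genes carried a FOXL2 peak, given that they are long. Of the 89 genes, 42 (47.2%, exact 95% confidence interval 36.5 to 58.1%) had a peak centre in the gene or within 10 kb of either end, against 49.6% of all protein-coding genes. Their median length was 75.2 kb, against 17.2 kb for all protein-coding genes, and longer genes more often had a peak. In genes of like length, taken as the share with a peak in each of 20 equal bins of window length, the average was 64.3%. The ratio of the observed to this share was 0.73, and the interval of the observed share lay below 64.3%. When the share was matched on the number of other gene ends in the window in place of length, a choice made after the data were examined, the share was 48.9% and the ratio 0.96, and the interval of the observed share held 48.9%. That match leaves length out. The median number of other gene ends was 1 both for these genes and for all protein-coding genes, and 39.3% of each had none. Among genes over 75.2 kb, 21 of 44 matrix and integrin genes (47.7%) had a peak, against 69.2% of 3342 protein-coding genes. At or under that length the shares were 46.7% of 45 matrix and integrin genes and 46.1% of 18545 protein-coding genes. No gene had over 2 peaks, and 32 had 1 and 10 had 2. These counts were not set beside those of all protein-coding genes or of genes of like length, so they are a description alone.

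Peaks near a gene can belong to its neighbours. A peak was called the gene's own if its centre lay inside the gene, or outside within 10 kb with no other protein-coding gene end nearer. Of the 89 genes, 32 (36%) had an own peak, against 58.7% in genes of like length and 41.3% of all protein-coding genes. A peak of their own within 1 kb of the gene's end, called a border peak here, was present in 22 genes (24.7%, interval 16.2 to 35.0%), against 43.0% in genes of like length and 32.8% of all protein-coding genes. Own peaks further than 1 kb from the gene's ends were present in 13 genes (14.6%, interval 8.01 to 23.7%), against 23.9% in genes of like length and 12.4% of all protein-coding genes. A peak inside the gene was present in 27 genes (30.3%), against 53.3% in genes of like length and 36.2% of all protein-coding genes. Peaks at a nearer end of another gene were present in the windows of 12 genes (13.5%), against 13.3% in genes of like length and 15.5% of all protein-coding genes. The counts below those of genes of like length were thus of the genes' own peaks, whereas neighbours' peaks stood close to theirs. In 10 of the 42 genes with a peak (23.8%), every peak belonged to a neighbour, against 16.7% of all protein-coding genes with a peak. The 47 genes without a peak lay 10.1 to 917 kb from the nearest one, with a median of 53.8 kb, against 88.5 kb for all protein-coding genes without a peak. Neither the share with neighbours' peaks alone nor this distance was matched on length.

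For peaks in the window, collagen genes had the lowest share relative to length of the 3 main families. Of the 44 collagen genes, 18 (40.9%, interval 26.3 to 56.8%) had a peak in the window, against 65.0% in genes of like length, a ratio of 0.63. Of the 11 laminin genes, 7 (63.6%, interval 30.8 to 89.1%) had one, against 66.0%, a ratio of 0.96. Of the 27 integrin genes, 13 (48.1%, interval 28.7 to 68.1%) had one, against 62.6%, a ratio of 0.77. Border peaks were found in 8 collagen genes (18.2%, interval 8.19 to 32.7%, against 42.8% in genes of like length) and in 2 integrin alpha genes (11.1%, interval 1.38 to 34.7%, against 42.7%). Laminin genes had them in 5 cases (45.5% against 43.6%) and integrin beta genes in 3 (33.3% against 43.6%). The interval of the collagens lay below the share in genes of like length for both window and border peaks, and that of the integrin alpha genes did so for border peaks. The border interval of the integrin alpha genes held the 32.8% of all protein-coding genes. At listed starts matched on CpG, described below, the intervals held the matched share. They were 12.5 to 43.3% against 37.2% for collagens and 1.92 to 45.4% against 32.4% for integrin alpha genes. In the window, 8 integrin alpha genes had a peak (44.4%, interval 21.5 to 69.2%), and the interval held the 62.4% of genes of like length. For collagens the window result did not hold under every choice. In a 50 kb window (65.9%, interval 50.1 to 79.5%, against 76.8%) the interval held the share in genes of like length. The interval in the 10 kb window also held the 47.6% of genes matched on other gene ends, a match that leaves length out. With peaks over 1 kb from every gene end alone, laminins had the lowest ratio, 0.35 (1 of 11 genes), against 0.61 for collagens (7 of 44) and 0.90 for integrins (5 of 27). The intervals of the families overlap one another, and the difference between families was not tested.

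**Figure D1:**
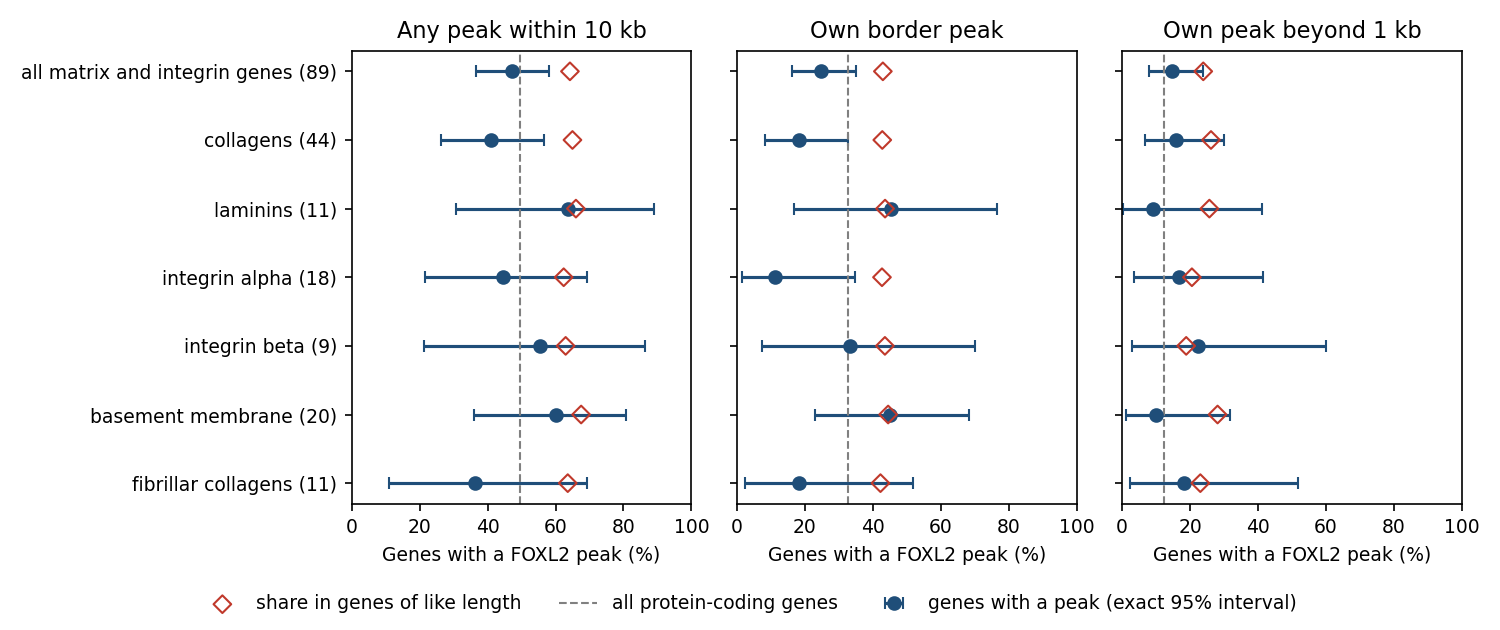
Share of genes with a FOXL2 peak (x axis, percent) for all 89 matrix and integrin genes, for each family, and for basement membrane and fibrillar collagen genes (number of genes in parentheses), under 3 definitions of a peak. Filled points with bars are the observed share with its exact 95% interval, open diamonds the share in genes of like length, and dashed lines all protein-coding genes; collagens and integrin alpha genes stand left of their diamond for border peaks (18.2% against 42.8% and 11.1% against 42.7%), and laminins on it.

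The next comparison set 20 basement membrane genes (collagen IV, laminins, nidogens and perlecan) against 11 fibrillar collagen genes. Of the basement membrane genes, 12 (60.0%, interval 36.1 to 80.9%) had a peak in the window, against 4 of the fibrillar genes (36.4%, interval 10.9 to 69.2%). Genes of like length averaged 67.5% for the basement membrane set and 63.6% for the fibrillar set, so the ratios were 0.89 and 0.57. For border peaks the shares were 45.0% (9 of 20) in basement membrane genes and 18.2% (2 of 11) in fibrillar genes, with ratios to genes of like length of 1.01 and 0.43. Own peaks further than 1 kb from the gene's ends were present in 2 of 20 basement membrane genes (10%) and 2 of 11 fibrillar genes (18.2%). Genes of like length had 28.1% and 23.0%, and all protein-coding genes 12.4%. The ratios to genes of like length were 0.36 and 0.79, so the order of the sets was the reverse of that for border peaks. One of the 2 fibrillar genes was Col27a1, whose peak lay 23 bp from its listed start, and the other was Col5a1. A single peak counted for both Col4a1 and Col4a2. All intervals overlap widely between the sets, and their difference was not tested. Among genes over 75.2 kb, 8 of 12 basement membrane and 3 of 5 fibrillar genes had a peak, and among shorter genes 4 of 8 and 1 of 6.

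Collagen IV, the network-forming collagen of the basement membrane, is encoded by 3 pairs of head-to-head genes. Col4a1 and Col4a2, which encode the chains present in nearly all basement membranes, had a single peak over their common start at chr8:11312615-11312914. Their listed starts lay 21 bp apart, and the peak centre was 62 bp downstream of that of Col4a1 and 41 bp upstream of that of Col4a2. The other 2 pairs had no peak over their starts. Col4a3 had 1 peak of its own 54.9 kb inside the gene at chr1:82641647-82641946 and 1 at the end of Mff, 2948 bp outside. For Col4a4 the nearest peak was that inside Col4a3, 54.8 kb away, and for the X-linked Col4a5 and Col4a6 the distances were 32.6 and 248 kb.

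Among laminins, which are assembled around an alpha chain that binds the receptors, 5 of 11 genes had a border peak. None of the 3 beta chains had a peak of its own (interval 0 to 70.8%, against 51.3% in genes of like length). Lama1, a chain of early embryonic basement membranes, had a peak 289 bp inside the gene (chr17:67697267-67697566) and another 6272 bp outside it. Lama2, the chain of muscle and peripheral nerve basement membranes, had a peak 394 bp inside (chr10:27616648-27616947), 145 bp downstream of its start. Lama3, an epithelial chain, had a peak 713 bp inside (chr18:12333981-12334280). Lamc1, the most widely used gamma chain, had a peak 615 bp inside (chr1:153332022-153332321). In these 4 genes the border peak lay inside the gene. The peak counted for Lama5 was 180 bp from the end of Adrm1, and that for Lamb2 lay between the ends of Usp19 (253 bp) and Lamb2 (330 bp), beyond the end of Lamb2 opposite its start. Lamb1, the main partner of Lama1 and Lamc1, had no peak within 21.4 kb, Lama4 none within 23.8 kb, Lamc3 none within 25.5 kb and Lamb3 none within 164 kb.

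Perlecan, the heparan sulfate proteoglycan encoded by Hspg2, had a peak 217 bp inside the gene (chr4:137468819-137469118), 165 bp downstream of its start. Of the nidogens, which bridge laminin and collagen IV, Nid2 had a peak 248 bp outside the gene (chr14:19750860-19751159), and Nid1 had no peak within 78.3 kb.

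The fibrillar genes with peaks of their own were 3. Col5a1 and Col5a2 encode collagen V, which governs the thickness of collagen I fibrils, and both had a border peak, 322 bp inside Col5a1 (chr2:27886554-27886853) and 195 bp inside Col5a2 (chr1:45502938-45503237). Col5a1 had a second peak 48.1 kb inside. Col27a1, of cartilage fibrils, had a peak 1380 bp inside (chr4:63215240-63215539) that lay 23 bp from its listed start. The peak counted for Col11a2 was 61 bp from the end of Rxrb. The genes of the abundant interstitial collagens had none. The nearest peak lay 39.0 kb from Col1a1, 59.6 kb from Col1a2, 153 kb from Col3a1 and 88.4 kb from the cartilage gene Col2a1. Col5a3 (43.4 kb), Col24a1 (174 kb) and Col11a1 (400 kb) were without a peak as well.

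**Figure D2:**
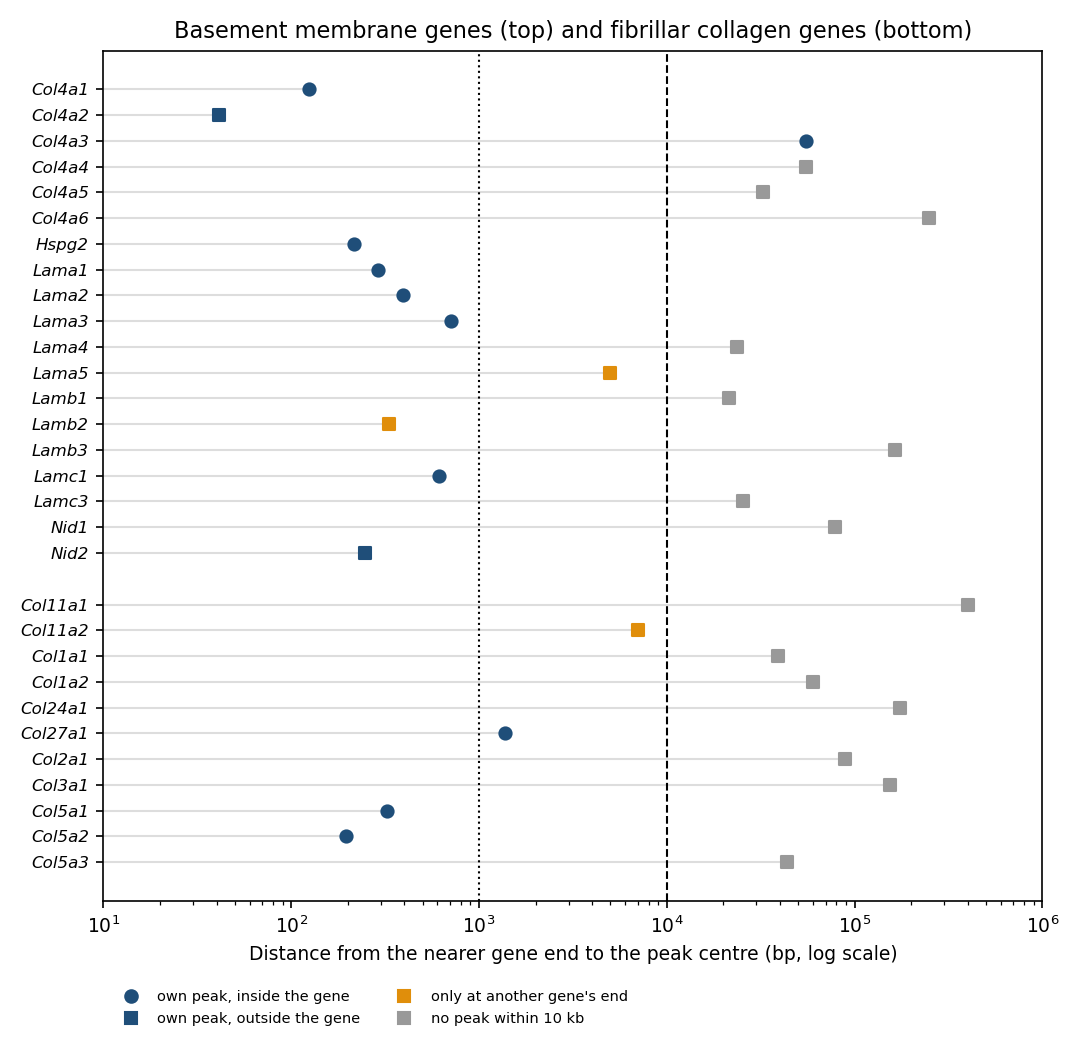
Distance in bp (x axis, log scale) from the nearer gene end to a peak centre for 19 of the 20 basement membrane genes above and the 11 fibrillar collagen genes below. The gene's own peak nearest to an end is drawn where there is one, and otherwise the nearest peak; dotted and dashed lines mark 1 and 10 kb, and 8 of the basement membrane and 2 of the fibrillar genes shown have a blue point left of the dotted line.

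Of the other collagens, 11 had a peak in the window and 8 had one of their own. The shares over all protein-coding genes were 49.6% and 41.3%. Window peaks were present in 4 of 9 genes of fibril-associated collagens, which sit on the surface of fibrils, and in 2 of 6 collagen VI genes. They were present in 3 of 4 transmembrane, 0 of 2 multiplexin and 2 of 6 remaining genes. In the same order, 3, 2, 2, 0 and 1 genes had an own peak. Genes of like length had window shares of 63.2, 64.6, 67.7, 70.3 and 61.6% in that order. For own peaks they had 57.9, 59.0, 64.2, 66.1 and 55.3%. The classes are small, and each of their intervals held the share in genes of like length. Col19a1, Col16a1 and Col14a1 are fibril-associated. Col19a1 had 2 peaks inside the gene, 1105 bp and 92.4 kb from an end, the first 620 bp downstream of its start. Col16a1 had a peak 41 bp outside, 64 bp upstream of its start, and another at Pef1, and Col14a1 had a peak 74.0 kb inside. Col6a2, a chain of the beaded filaments of collagen VI, had a peak 355 bp inside (chr10:76623126-76623425), whereas for its partner Col6a1 the nearest peak was 85.5 kb away and for Col6a3 it was 75.9 kb away. Col6a6 had a peak 121 bp inside.

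Of the transmembrane collagens, Col13a1 had a peak 17 bp inside the gene (chr10:61979040-61979339), 81 bp upstream of its start, and Col25a1 had 2 peaks 158 and 190 kb inside. Col26a1 had 2 peaks inside, 1737 bp and 19.3 kb from an end. Peaks counted for Col8a2, Col9a3 and Col23a1 lay at the ends of Adprhl2, Ogfr and Phykpl. Col15a1 and Col18a1, the multiplexins of the basement membrane zone, had none, with the nearest at 40.1 and 54.1 kb, and Col22a1 was the furthest of the 89 genes from a peak at 917 kb.

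Integrin genes were ordered by what their alpha chain binds. Of those that recognise the RGD motif of fibronectin and vitronectin, Itga5 and Itgav had peaks of their own. Itga5, the fibronectin receptor chain, had a peak 344 bp downstream of its start (chr15:103366298-103366597). Itgav, the chain of the vitronectin and TGF-beta activating receptors, had 2 peaks inside, 1 over its listed start (chr2:83724223-83724522) and 1 at 16410 bp downstream. The peak counted for Itga2b, the platelet chain, lay at Fam171a2, and Itga8 had no peak within 329 kb. Of the laminin receptors, Itga6 had 2 peaks, 512 bp (chr2:71787249-71787548) and 19.0 kb inside, that counted for Itga3 lay at Pdk2, and the nearest to Itga7 was 10062 bp away, just beyond the limit.

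None of the 4 collagen-binding alpha chains had a peak of its own (interval 0 to 60.2%). The shares were 60.5% in genes of like length and 41.3% of all protein-coding genes. The nearest peak was 376 kb from Itga2, 501 kb from Itga1 and 27.8 kb from Itga11, and that counted for Itga10 lay nearer to the end of another gene. Itga4 (385 kb) and Itga9 (25.1 kb) had none either. Of the 5 leukocyte alpha chains, none had a border peak (interval 0 to 52.2%, against 42.1% in genes of like length). The peak inside Itgae lay 73 bp from the end of Haspin, the peak counted for Itgad was nearest to Cox6a2, and Itgal (10123 bp), Itgax (57.8 kb) and Itgam (90.0 kb) had none.

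Of the integrin beta genes, Itgb1, Itgb5 and Itgb8 had border peaks. Itgb1, whose product pairs with most alpha chains of laminin, collagen and fibronectin receptors, had a peak 292 bp inside the gene (chr8:128685797-128686096). Itgb5, a partner of Itgav, had 2 peaks on either side of its start, 85 bp upstream (chr16:33829431-33829730) and 461 bp downstream (chr16:33829977-33830276). Itgb8, another partner of Itgav, had a peak 80 bp upstream of its start (chr12:119238207-119238506). Itgb4, the hemidesmosome partner of Itga6, had a peak 3577 bp inside that lay 3522 bp from the end of Galk1, and the leukocyte gene Itgb7 had a peak 8625 bp inside. The nearest peak was 17.7 kb from Itgb3, 45.1 kb from Itgb6, 16.2 kb from the leukocyte gene Itgb2 and 230 kb from Itgb2l. Among the genes that are not subunits, Itgb3bp had a peak 32 bp outside and Itgb1bp1 had one 394 bp inside that was 375 bp from the end of Cpsf3.

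Where peaks sat relative to transcription was read from the RefSeq promoter table, which listed a start for 64 of the 89 genes and for 17492 protein-coding genes. A peak centre lay within 1 kb of a listed start in 18 of the 64 genes (28.1%, interval 17.6 to 40.8%), against 38.4% of all protein-coding genes with a listed start. The nearest centres ranged from 89 bp upstream (Itgb3bp) to 620 bp downstream (Col19a1), and 17 of the 18 were within 500 bp. Equal numbers lay on each side, 9 downstream and 9 upstream, against 72.4% downstream over 6710 protein-coding genes with a start peak, whose median was 121 bp downstream. The single peak of Col4a1 and Col4a2 counted once on each side. With 18 genes the share is imprecise, and its difference from 72.4% was not tested. The 1 gene with a peak within 1 kb of the end opposite the start was Lamb2, against 1.3% of protein-coding genes of at least 5 kb. All 15 genes with both a border peak and a listed start had the peak at the start. The same share over all protein-coding genes was not counted. There too, peaks were far more often at the start (38.4%) than at the opposite end (1.3% of genes of at least 5 kb). Itgav, Col27a1 and Col19a1 had a start peak that distance to the gene's outer end placed over 1 kb away.

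**Figure D3:**
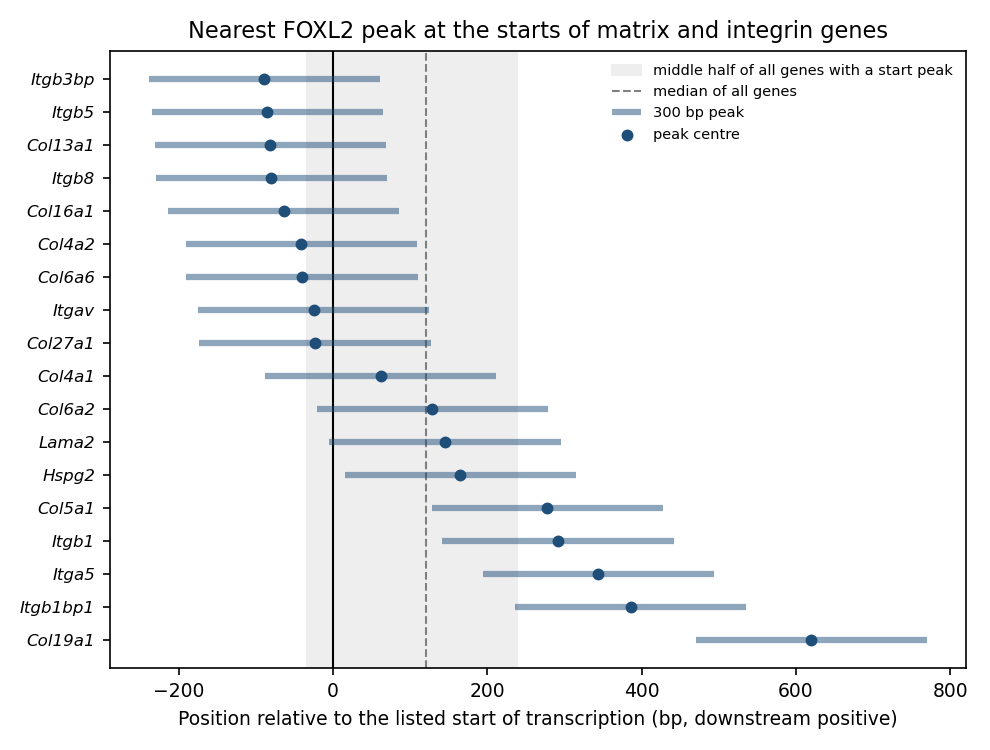
Position in bp (x axis, downstream positive) of the nearest 300 bp peak (bar) and its centre (point) relative to the listed start of transcription, for the 18 matrix and integrin genes with a centre within 1 kb. The grey band and dashed line give the middle range and the median, 121 bp, of 6710 protein-coding genes with a start peak; 9 of the 18 points lie left of the start.

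Start peaks went with the CpG content of the promoter, the 300 bp from 250 before to 50 after the start. The 18 genes with a start peak had a median of 21 CpG and the other 46 a median of 8.5, against 24 and 5 over all protein-coding genes. With 10 or more CpG, 17 of 39 matrix and integrin genes (43.6%) had a start peak, against 62.7% of 10133 protein-coding genes. With fewer, 1 of 25 (4%) had one, against 4.91% of 7359 protein-coding genes. That 1 gene was Lama2, with 1 CpG. The other basement membrane genes with a start peak were rich in CpG, with 37 in Col4a1, 33 in Col4a2 and 27 in Hspg2. Matched on CpG count in 10 bins, protein-coding genes averaged 35.7%, so the ratio for the 64 genes was 0.79. It was 0.69 for 35 collagen genes (9 with a start peak, 25.7% against 37.2%), 0.47 for 13 integrin alpha genes (2, 15.4% against 32.4%) and 1.70 for 6 integrin beta genes (3, 50% against 29.4%). For 12 basement membrane and 8 fibrillar genes with a listed start it was 0.83 (4 genes) and 0.62 (2 genes). All of these intervals held the CpG-matched share. Col3a1, Col9a1 and Col28a1 had 0 CpG, Col6a1 and Col6a3 had 3, and Col1a2 had 13. Promoters with at least 20 CpG and no start peak were those of Col8a2 (32 CpG), Lama5 and Col23a1 (24 each), Itga8 and Col25a1 (23 each), and Nid1 and Col5a3 (20 each). The part of CpG content in the differences between families was not tested.

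**Figure D4:**
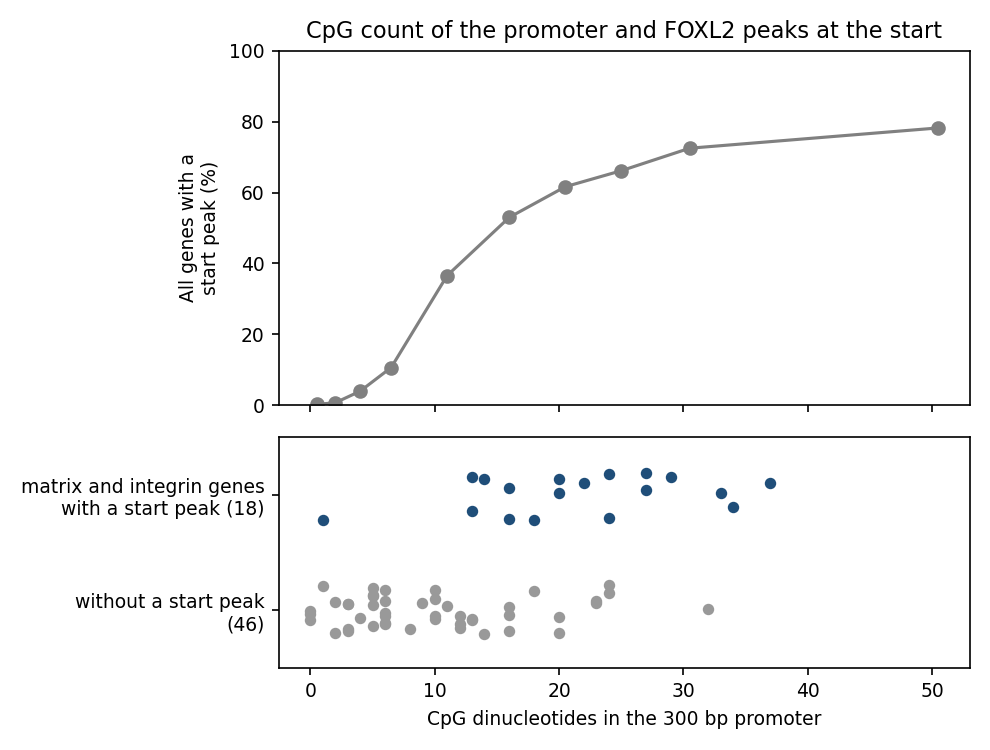
Above, the percentage of all protein-coding genes with a FOXL2 peak within 1 kb of a listed start (y axis) in 10 bins of promoter CpG count (x axis, CpG dinucleotides in 300 bp, plotted at the middle of each bin's range). Below, each point is 1 of the 64 matrix and integrin genes, with the 18 that had a start peak over the 46 that did not; 17 of the 18 had 10 CpG or more, and the point at 1 CpG is Lama2.

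The promoters were searched for short motifs on both strands. The forkhead sequence TGTTTAC was in none of the 18 promoters with a start peak and in 1 of the other 46 (Col6a1), against 2.73% of promoters with a start peak and 2.95% of promoters over all protein-coding genes. The looser TGTTTNC, which includes it, was in 2 of 18 (Lama2 and Itgb3bp) and 8 of 46, against 13.9% of promoters with a start peak and 18.1% of all. The GC box GGGCGG was in 13 of 18 (72.2%) and 23 of 46 (50%), against 72.4% of promoters with a start peak and 47.0% of all. CCAAT was in 4 of 18 and 14 of 46, against 37.1 and 38.8%, and the ETS sequence CCGGAAG was in 1 of 18 and 0 of 46, against 20.9 and 12.1%. The GATA sequence AGATAA was in 1 of 18 and 3 of 46, against 4.81 and 9.74%. The nuclear receptor sequence CAAGGTCA was in 0 of 18 and 2 of 46 (Col7a1 and Col9a1), against 0.82 and 1.3%. These shares describe the letters of the promoter window, which covers only part of each peak.

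Genes that make, modify or bind the same proteins were counted from 3 further lists. Of 22 integrin adaptor genes, which tie integrins to actin, 17 (77.3%, interval 54.6 to 92.2%) had a peak, against 62.5% in genes of like length. The counts were 19 of 27 (70.4% against 62.7%) for other matrix ligands and receptors, with an interval of 49.8 to 86.2%, and 16 of 26 (61.5% against 57.9%) for collagen processing genes, with an interval of 40.6 to 79.8%. All of these intervals held the share in genes of like length, and the share over all protein-coding genes was 49.6%. Among adaptors, Pxn, the focal adhesion scaffold paxillin, had 4 peaks, of which 1 was its own, and the talin gene Tln2 and the tensin gene Tns3 had 3 each, all their own. P4ha1, a prolyl hydroxylase subunit for collagen, had 3 peaks of its own. Agrn, the basement membrane proteoglycan agrin, had 2 peaks, of which 1 was its own, and the fibronectin gene Fn1, whose product binds Itga5 and Itgb1, had a peak 174 bp from its end. Border peaks were present in 13 of 22 adaptor genes (59.1%, interval 36.4 to 79.3%, against 42.0%). The counts were 12 of 27 ligand and receptor genes (44.4%, 25.5 to 64.7%, against 41.9%) and 11 of 26 processing genes (42.3%, 23.4 to 63.1%, against 38.8%). The share over all protein-coding genes was 32.8%. At listed starts matched on CpG, the shares were 58.8% against 55.2% for adaptors and 42.9% against 45.4% for ligands and receptors. Processing genes had 50% against 60.9%. All of these intervals held the matched share.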

How the data were processed

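FOXL2 ChIP-seq was represented by 1 deposited peak list for both ChIP samples. Per the submitters' processing notes, Bowtie 1.2, Picard 1.110, bedtools 2.24.0 and HOMER 4.9 and build mm10 were used; their roles, the peak threshold and any pooling were not given in the sources used here. Positions are the authors' deposited values in bp; starts were converted to 1-based and the peak centre was used. Genes came from the RefSeq table of GRCm38.p6, the assembly mm10 denotes, and starts, strands and promoter sequences from its promoter table. Shares have exact Clopper-Pearson 95% intervals, and the share in genes of like length is the mean over each gene's bin (20 bins of window length). Python 3.11.15, pandas 2.3.3 and scipy 1.17.1 were used, and the counting was tested on simulated peaks. The genes and lists were chosen with earlier results of these data known, so no p-value is given. Positions went to those with an own peak and to the basement membrane and fibrillar lists, and related lists were limited to 4 genes with most peaks. Some items are counted in the totals and not reported here by name. No start was listed for 25 genes, among them Itgae, Col1a1, Col22a1, Itgb2, Itgb1bp2, Col2a1, Itga7, Lama3, Lamc3, Col9a3, Itgb3, Lama1, Lamc1, Col26a1, Nid2, Itgad, Itgal, Itga6, Col5a2, Col4a3, Col12a1, Itgb4, Lama4 and Col14a1.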

Additional observations from a re-analysis of the deposited data

How the results depend on the processing

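Results here are ratios of the share of genes with a peak to the share in matched genes. The ratio for all 89 genes, 0.73, was 0.95 in a 50 kb window and 0.96 when matched on other gene ends in the window. The match on gene ends was added after the data were examined and leaves length out. With peaks over 1 kb from every gene end alone, the laminin ratio was 0.35 (1 of 11 genes) and the basement membrane ratio 0.36 (2 of 20). The interval of the observed share lay below the matched share at first for all 89 genes and for collagens, and held it in both cases in the 50 kb window and under the match on gene ends. The collagen ratios there were 0.86 and 0.86, and with peaks over 1 kb from every gene end, where the interval also held it, 0.61. The interval of integrins came to lie below with the gene body (ratio 0.58) and with own peaks (0.59), and that of fibrillar genes with the 5 kb window (0.45). For border peaks, 0.58 at first and below, the ratio at listed starts matched on CpG was 0.79 and the interval held the share. Apart from the first 2 alternatives for all 89 genes and the 0.35 and 0.36 above, every ratio stayed within the 95% interval of its first value. The other alternatives were a 5 kb window, the gene body, peak edges, own peaks, merged peaks, 10 or 50 length bins, other memberships, ends of 5 kb, and listed starts matched on CpG, which was added after the data were examined. With peak edges 44 of 89 genes had a peak, since those near Itga7 and Itgal reach the window. A stricter peak threshold could not be tried because the list holds no score. No paired analysis was possible because the single peak list gives no values per replicate. Binding too weak for the submitters' peak calling would leave a gene counted as without a peak.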

Other observations

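In several groups of neighbouring collagen genes, some members had a peak and others had none nearby. Col4a3 and Col4a4, given above, were such a pair. Col19a1 had 2 peaks, and the nearest peak to Col9a1, which lies beside it, was 77.5 kb away. Col5a2 had a border peak, and the nearest peak to Col3a1, which lies beside it on chromosome 1, was 153 kb away, as the Col5a2 peak sits at the end of Col5a2 far from Col3a1. In the collagen VI cluster on chromosome 9, Col6a6 had a peak over its start, and Col6a5 and Col6a4 were 27.9 and 74.2 kb from the nearest. Other neighbours were alike, as Col4a1 and Col4a2 shared a peak and neither Col4a5 nor Col4a6 had one. How often neighbouring genes differ in this way over all protein-coding genes was not counted.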
